A study of Mus musculus with 4 samples.

Results

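Interferon-stimulated genes are the transcripts that cells switch on when interferons bind their surface receptors. Interferon receptors act through JAK kinases on transcription factors of the STAT family. These bind sequences called the interferon-stimulated response element (ISRE), where Stat2 and Irf9 take part, and the gamma-activated site (GAS). The products sense viral nucleic acid, modify proteins with Isg15, block viral entry and replication, and recruit immune cells, and fibroblasts are a classical cell type in which this response has been studied. A list of 43 such genes was followed here, of which 40 were found among the 27745 gene names of the array by their symbol. Irf9, Dhx58 and Xaf1 were not found under those symbols. The array carries Isgf3g, an older name of Irf9, and D11Lgp2e, an older name of Dhx58, whose values are given beside the list and enter none of its counts. Each gene was read from its brightest probe.

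RNA was taken from mouse embryonic fibroblasts of C57BL/6J mice, labelled as wild type (WT) or as Lats2 -/- (KO) in the genotype field. Lats2 is a kinase of the Hippo pathway, which responds to cell crowding. Low density cultures were sampled subconfluent at 48 h and high density cultures at 3 to 5 days, so density and time in culture cannot be told apart. Each genotype was measured on 2 Agilent arrays that read Cy3 and Cy5 together, low against high density, the second array with the dyes exchanged; this is 1 replicate per genotype and density with a technical repeat, and the labels do not say whether the repeat used the same extracts. No test was therefore possible and no p-value is given. A gene was called higher or lower where the average of its 2 log2 ratios reached 1 or -1 (2-fold) and neither ratio had the opposite sign. These 2 ratios were the arrays of a pair for density, and the dyes for genotype. In the source names the labels write LAT2 in place of Lats2.

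Between 52.8% and 67.7% of the 43379 features on an array were well above background in a channel, 107 to 224 features were flagged and 0 were saturated. Both WT arrays shared a slide and a scan day while the KO arrays had 2 other slides and scan days, so slide and genotype cannot be told apart. Of the 4 Lats2 probes, 3 were higher on the arrays labelled KO, by log2 ratios of 0.91 to 1.49, and 1 was lower, by -0.63 at low and -1.26 at high density. The groups are therefore called labelled WT and labelled KO. The study also examined Lats2 protein in these fibroblasts by western blot, which was not analysed here. All 10 fibroblast markers were well above background on both arrays at high density in either genotype. Their levels differed between the genotypes. Pdgfra was higher in labelled KO cells by mean log2 ratios of 4.46 at low and 3.10 at high density. At high density Fbln2 (3.18) and Thy1 (1.39) were higher and Lum (-1.46) lower. At low density the brightest Col1a2 probe was lower (-1.001), while its second probe stood at 0.78. Of 7 endothelial markers Eng was lower in labelled KO, by -2.39 and -2.64, and Pecam1 and Cdh5 were not counted in either genotype contrast. Of 10 macrophage markers 3 or 4 were well above background on both arrays of a condition, with Emr1, Ptprc, Itgam and Fcgr1 not well above background in any channel. The summed level of the macrophage list was 10.17 to 10.29 on the log2 scale in the WT channels and 10.92 to 12.51 in the KO channels. Within it the brightest Lyzs probe had mean log2 levels of 6.38 and 7.38 in labelled WT (low and high density). In labelled KO cells its levels were 10.28 and 12.13. At low density in labelled WT it was not well above background. The other Lyzs probe gave smaller log2 ratios of labelled KO over labelled WT. They were 0.33 at low density, where it was too dim to be counted, and 0.62 at high density. Cd14 of the same list was lower in labelled KO cells, with mean log2 ratios of -1.80 at low and -1.59 at high density, and Cd68 had -0.10 and -0.38. The part of other cell types in the results below was not tested. In RNA from whole cultures, fewer expressing cells and less RNA per cell cannot be told apart.

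The promoters of several members hold the letters of the binding elements, and the stretches below are shown because they belong to members with large density effects or to the families described next. RefSeq (GRCm38.p6) gave a window of 250 bases before to 50 bases after the start for 33 of the 43 genes, 2 of them (Iigp2, now Irgm2, and Trim30, now Trim30a) through an older symbol. Mx1, Mx2, Oas1b, Oas2, Usp18, Dhx58, Ifi27, Iigp1, Parp14 and Zbp1 had no window in the promoter set used. The letters were searched on both strands, GAAANNGAA for the ISRE core and TTCNNNGAA for GAS; each stretch runs 5′ to 3′ in the direction of the transcript, and capitals mark the matches, which overlap each other in Ifit1, Isg15 and Bst2.
Igtp, GRCm38.p6 chr11:58199486-58199555, plus strand: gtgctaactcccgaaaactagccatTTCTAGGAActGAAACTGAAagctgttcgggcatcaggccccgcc
Iigp2, GRCm38.p6 chr11:58214877-58214946, plus strand: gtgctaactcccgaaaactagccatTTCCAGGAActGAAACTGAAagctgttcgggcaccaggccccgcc
Gbp2, GRCm38.p6 chr3:142620580-142620638, plus strand: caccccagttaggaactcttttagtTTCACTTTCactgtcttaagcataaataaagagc
Ifit1, GRCm38.p6 chr19:34640755-34640838, plus strand: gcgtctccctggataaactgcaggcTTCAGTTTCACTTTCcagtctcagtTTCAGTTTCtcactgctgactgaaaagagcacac
Ifit3, GRCm38.p6 chr19:34583349-34583460, plus strand: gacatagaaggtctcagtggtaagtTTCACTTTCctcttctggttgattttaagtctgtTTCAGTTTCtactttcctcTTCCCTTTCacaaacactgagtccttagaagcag
Isg15, GRCm38.p6 chr4:156200851-156200921, minus strand: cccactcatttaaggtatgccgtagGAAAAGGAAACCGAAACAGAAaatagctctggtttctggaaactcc
Bst2, GRCm38.p6 chr8:71537563-71537633, minus strand: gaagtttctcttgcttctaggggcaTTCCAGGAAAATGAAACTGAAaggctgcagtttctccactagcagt
Cxcl10, GRCm38.p6 chr5:92349069-92349127, minus strand: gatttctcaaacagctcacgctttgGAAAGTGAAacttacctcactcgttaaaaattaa
Irf1, GRCm38.p6 chr11:53769899-53769957, plus strand: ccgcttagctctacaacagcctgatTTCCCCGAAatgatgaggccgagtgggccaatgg
The ISRE letters were found in 21 of the 33 genes (63.6%), against 8.56% of all 32851 promoter windows and 9.76% of all 27025 genes with a window. The GAS letters were found in 9 of 33 (27.3%), against 8.30% of windows and 9.55% of genes. The list was compiled from known interferon targets, so these shares describe that choice. Igtp and Iigp2, neighbouring immunity-related GTPases on chromosome 11, carried both elements at the same spacing, the ISRE letters starting 11 bases after the GAS letters, and their printed stretches differed at 2 of 70 bases. Irf1 held the GAS letters only, as did Ifit2, Isg20 and Ifi35. A match is a description of letters and was not linked to binding in these cells.

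**Figure D1:**
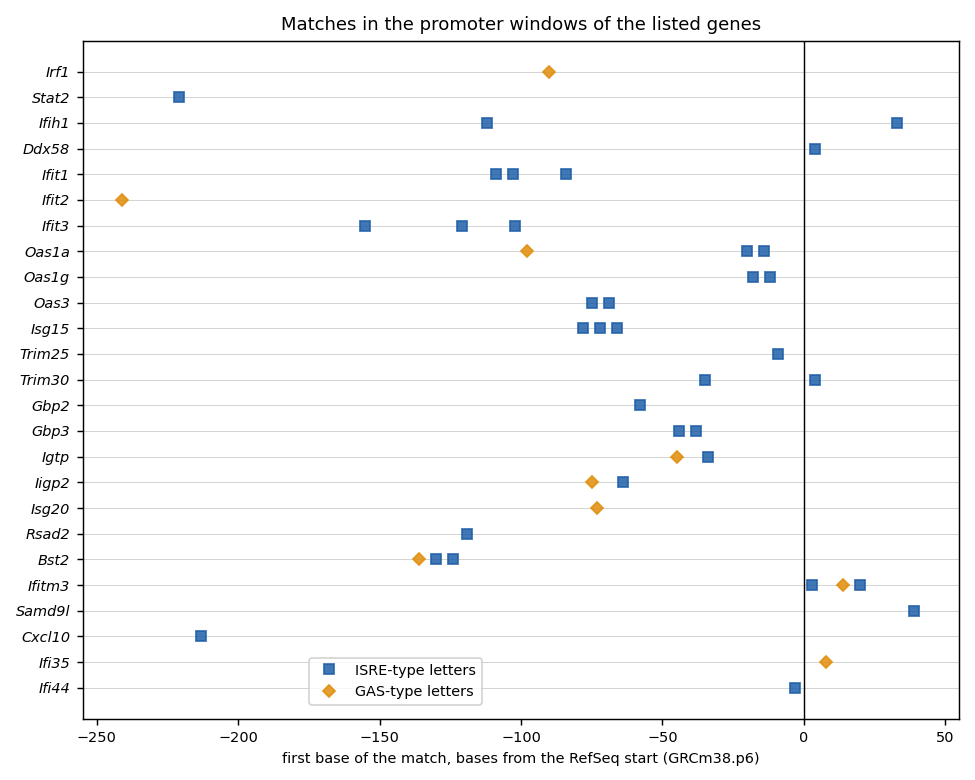
Position of the first base of each match to the ISRE letters (blue squares) or GAS letters (orange diamonds) in the RefSeq promoter window, in bases from the start (vertical line), for the 25 listed genes with a match. The matches of Igtp and Iigp2 stand 11 bases apart in both genes, and the matches of Ddx58, Ifitm3, Samd9l and Ifi35 lie after the start, as does 1 match each of Ifih1 and Trim30.

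At high density the list stood higher than at low density in cells labelled WT. Of the 40 genes, 22 were at least 2-fold higher by this rule and 0 were lower, while 8 were too dim to be counted; among all 14879 genes measured, 9.42% were higher and 6.09% lower by the same rule. A gene could enter through its bright side alone, which favours large values, so the count was repeated over the 20 members well above background in all 4 channels of the contrast. Of these, 14 were higher (70%) and 0 lower, against 9.18% and 6.49% of 13489 genes, with a median log2 ratio of 1.49 against 0.04. The technical SD of a single array, from the difference between the arrays of the pair, was 0.14 on the log2 scale.

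GTPases that act on pathogen-containing vacuoles were among the members with large ratios in labelled WT. Igtp had log2 levels of 7.14 and 6.87 at low and 10.44 and 10.39 at high density, which gave log2 ratios of 3.30 and 3.51. Iigp2 went from 7.35 and 7.28 to 10.49 and 10.34, with ratios of 3.13 and 3.06. For both genes each high density channel lay above each low density channel, which largely follows from ratios of this size. The guanylate-binding protein Gbp2 gave ratios of 1.83 and 1.58. Gbp3, Iigp1 and the dynamin-like antiviral GTPase Mx2 were not well above background at low density, and were at least 3.38-fold, 3.55-fold and 3.63-fold higher at high density. Ifi47, a further GTPase of this family, had ratios of -0.07 and -0.18, and the related antiviral GTPase Mx1 was well above background in 1 of 8 channels.

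Secreted products also rose in labelled WT cells. Lgals3bp, a secreted glycoprotein that binds galectins, had log2 levels of 9.58 and 9.61 at low and 12.46 and 12.41 at high density (ratios 2.88 and 2.80). Cxcl10, a chemokine that attracts T cells, had levels of 6.53 and 6.51 at low and 9.03 and 8.73 at high density, and was well above background on 1 of 2 arrays at low density. Parp14, an ADP-ribosyltransferase, had ratios of 2.34 and 2.61 at its brightest probe; of its other probes one gave a mean ratio of 0.62 and the other was not above background. Ifi27, a small mitochondrial protein gene, had ratios of 2.33 and 2.24, and its other probes gave means of 2.01 and 1.04.

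Among the effectors that block viral translation and replication, Ifit3 had ratios of 2.05 and 2.22, and Ifit1 was at least 3.01-fold higher. Ifit2, of the same family, had -0.27 and -0.24. Of 7 members of the OAS family, which are named for the synthesis of oligoadenylates, only Oasl2 changed, by at least 3.18-fold; Oas2 was at least 1.20-fold higher and Oas1a, Oas1b, Oas1g, Oas3 and Oasl1 were not well above background in any channel, nor was the antiviral enzyme gene Rsad2. Bst2 (tetherin, which holds budding virions at the membrane) had ratios of 1.82 and 1.68, and Ifitm3, an inhibitor of viral entry, 1.12 and 1.09. Ifitm1 had 0.55 and 0.49, Samd9l 0.89 and 0.68, and the exonuclease gene Isg20 -0.47 and -0.49.

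Isg15, the ubiquitin-like modifier, went from 6.85 and 6.56 to 8.47 and 8.29, with ratios of 1.62 and 1.73; the array annotation (build mm8) places its probe on chromosome 17, whereas RefSeq lists the gene on chromosome 4, so the identity of its signal is uncertain. Usp18, which removes Isg15 from proteins, was at least 2.25-fold higher. The E3 ligase gene Trim25 had 1.54 and 1.10, and Trim30 was at least 1.48-fold higher. The transcription factor genes Stat2 and Irf1 had ratios of 1.45 and 1.75 and of 1.35 and 1.42. Isgf3g (Irf9), the partner of Stat2, had 1.43 and 1.11, while its second probe had 0.11 and 0.20, so this call rests on the brighter probe. The RNA sensor genes Ddx58 (RIG-I) and Ifih1 (MDA5) had 1.11 and 1.06 and 0.80 and 0.92, D11Lgp2e (Dhx58) had 0.36 and 0.60, and Zbp1 had 0.29 and 0.44. Ifi44 was at least 1.99-fold higher, with a mean log2 ratio of 1.06, and Ifi35 had 0.61 and 0.78. Several of these calls rested on the chosen probe. Averaged over all probes measured, Irf1, Ddx58, Trim25 and Ifi44 stood at 0.94, 0.63, 0.82 and 0.83, and centring in place of loess left Ifitm3 at 0.84 and Ddx58 at 0.98. Without WT replicate 2, Ifi44 stood at 0.91.

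**Figure D2:**
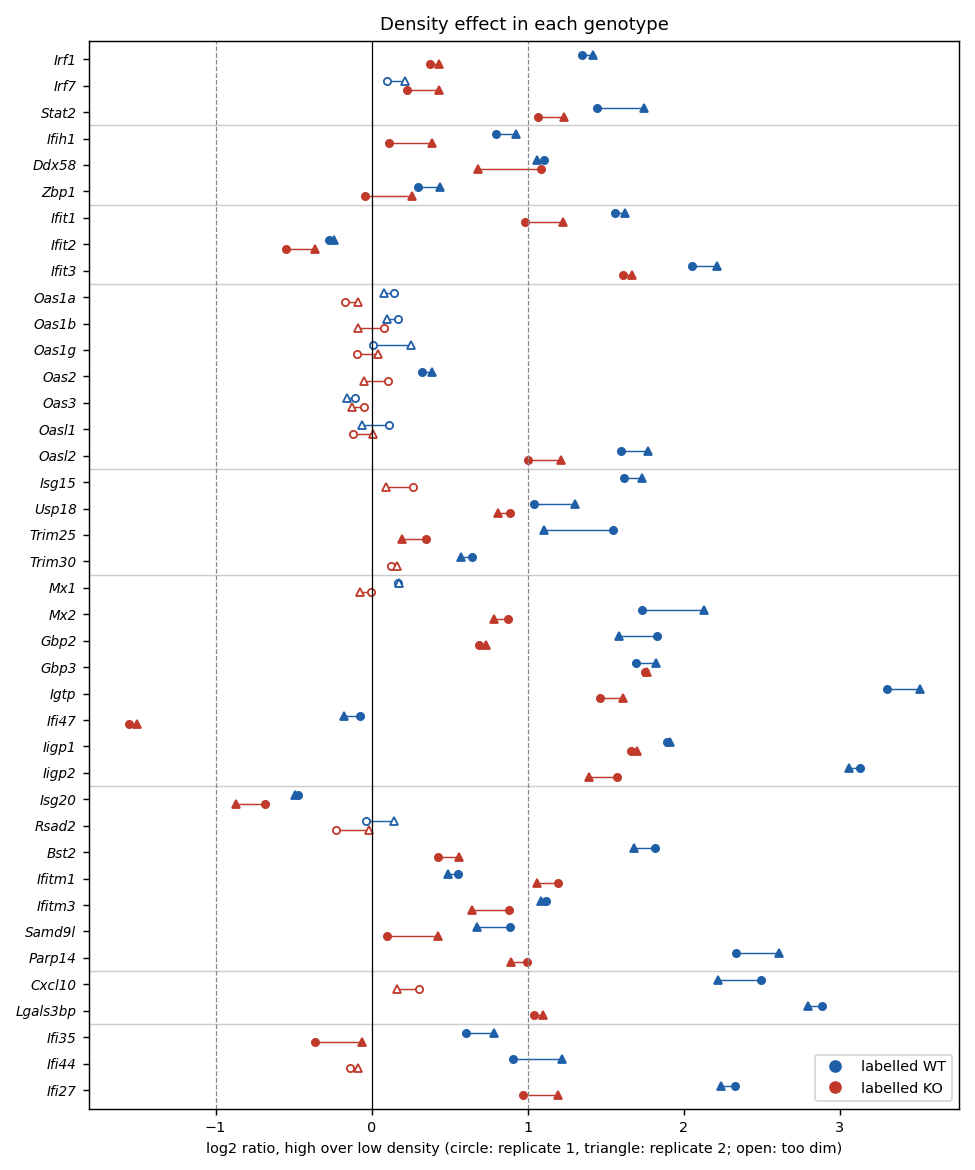
Log2 ratio of high over low density for each of the 40 genes on the array, grouped by role, in labelled WT (blue) and labelled KO (red); circles and triangles are the arrays of a dye swap, open symbols were too dim to be counted and dashed lines mark 2-fold. Igtp, Iigp2 and Lgals3bp reach 2.80 to 3.51 in labelled WT and 1.04 to 1.61 in labelled KO, and Ifi47 falls in labelled KO.

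The size of these ratios depends on the signals they were computed from, and no setting changed the background correction alone. The offset of 50 used here draws ratios of dim probes towards 0. With the scanner software's own processed signals the median over the 32 measured members was 2.49 in place of 1.49. Of these members 28 were then higher and 0 lower, where 2506 of all 14879 genes were higher and 1440 lower. By that reading Igtp had a mean ratio of 4.53, Cxcl10 of 4.34, Parp14 of 4.21 and Iigp2 of 3.91. Iigp1 (5.63), Oasl2 (4.88), Mx2 (4.88), Ifit1 (4.50), Ifi44 (4.33) and Gbp3 (4.07) were not well above background at low density, so their values divide by background-level signals and their place in the order was not measured.

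In cells labelled KO fewer members rose and by less. Of the 40 genes, 11 were higher, 1 was lower and 12 were too dim to be counted, where the rule called 7.17% of 15434 genes higher and 3.87% lower. Over the 22 members well above background in all 4 channels, 8 were higher (36.4%) and 1 was lower, with a median of 0.80; over 14148 genes so measured the shares were 7.32% and 4.02% and the median was 0.05. The technical SD was 0.21. Of the 22 genes higher in labelled WT, 10 were also higher in labelled KO, 9 were measured there without reaching 2-fold and 3 (Cxcl10, Isg15 and Ifi44) were too dim there. The same split was not counted over all genes higher in labelled WT, so these numbers describe the members only.

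Some members were called higher in both genotypes. Gbp3 had log2 levels of 7.04 and 6.93 at low and 8.79 and 8.70 at high density in labelled KO cells, with ratios of 1.75 and 1.77, beside the bound of 3.38-fold in labelled WT. Iigp1 had 1.66 and 1.70, and the bound of 3.55-fold given above for labelled WT. Ifit3 had 1.61 and 1.67, Stat2 1.07 and 1.23, Ifit1 0.98 and 1.23, and Oasl2 was at least 2.12-fold higher. For these genes the channels of high and low density did not overlap in either genotype, which largely follows from the call itself. At low density in labelled WT, Gbp3, Iigp1, Ifit1 and Oasl2 were not well above background.

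Several members with large ratios in labelled WT had smaller ones in labelled KO. Igtp went from 7.78 and 7.80 to 9.24 and 9.41 (ratios 1.46 and 1.61), and Iigp2 from 7.14 and 7.16 to 8.71 and 8.55 (1.57 and 1.39). Lgals3bp had ratios of 1.04 and 1.10 and Ifi27 of 0.97 and 1.20. Parp14 had 0.99 and 0.89, Mx2 0.87 and 0.78, Gbp2 0.69 and 0.73 and Bst2 0.42 and 0.56. Irf1 had 0.37 and 0.43 and Trim25 0.35 and 0.20 at their brightest probes. At their second probes Irf1 had -0.13 and 0.08, and Trim25 was below 0 on both arrays, at -0.49 and -0.795. Ifitm1 was the exception among the genes higher in labelled KO, since it was not called in labelled WT, with ratios of 1.19 and 1.06 in labelled KO. Isg20 (-0.68 and -0.87), Ifit2 (-0.55 and -0.37) and Ifi35 (-0.36 and -0.07) were below 0 on both arrays without reaching the threshold. Ifi47 was the only member called lower at high density, with levels of 9.05 and 9.26 at low and 7.49 and 7.75 at high density (ratios -1.56 and -1.51). Cxcl10 had log2 levels of 6.05 and 6.10 at low and 6.36 and 6.26 at high density, and was well above background in 1 of these 4 channels. Without KO replicate 2, Ifit1 stood at 0.98 and Ifi27 at 0.97, and with median centring Stat2 stood at 0.88 and Lgals3bp at 0.81. Averaged over its probes Ifi27 stood at 0.79.

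**Figure D3:**
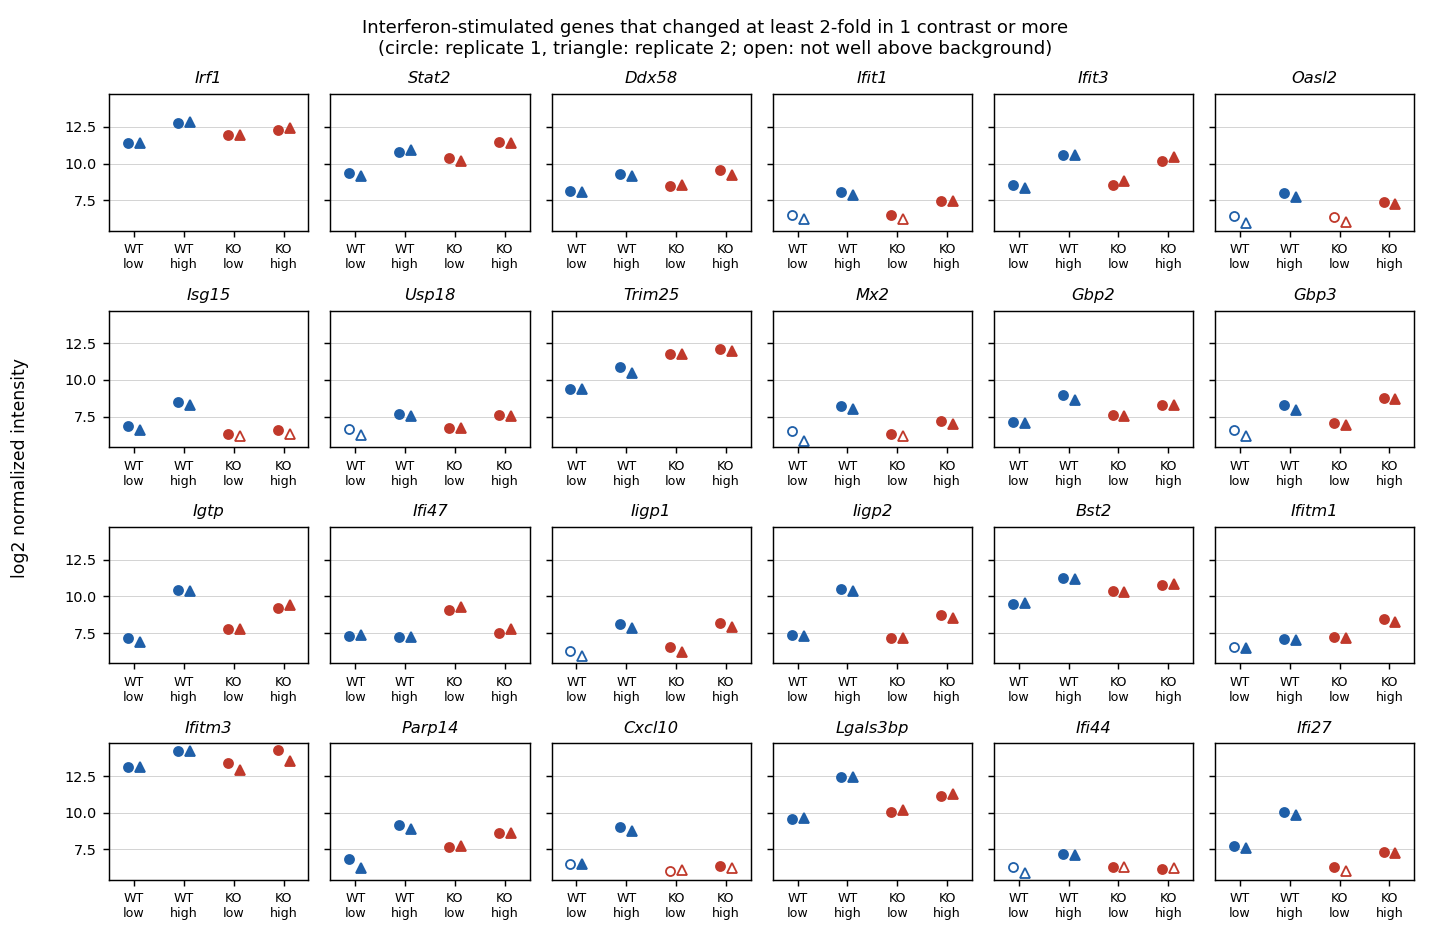
Log2 normalized intensity in the 8 channels for the 24 members that changed at least 2-fold in 1 contrast or more, by labelled genotype and density; circles are replicate 1, triangles replicate 2 and open symbols were not well above background. Levels compare within a panel only, and in the panel of Cxcl10 the labelled KO channels stay at 6.05 to 6.36 while labelled WT reaches 9.03 at high density.

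The difference between the density effects (labelled KO minus labelled WT) was taken for the 27 members measured in both. Of them 0 were at least 2-fold positive and 9 at least 2-fold negative, where 4.55% of 14165 genes were positive and 4.98% negative. The median was -0.57, against 0.02 over all genes. With the processed signals 16 were negative, where 974 of the 14165 genes were positive and 1302 negative. The deposited ratio table also gave 16 negative, and its share over all genes was not counted. Over the 18 members well above background in all 8 channels, all 18 values were below 0, where 6220 of 12942 genes were. By 2-fold 7 of the 18 were below 0 (38.9%, against 4.66% of those genes), and the median was -0.94 against 0.02. Without this filter, which left out Ifitm1, 25 of the 27 members were below 0. The technical SD was 0.19. The 9 genes were Igtp (-1.84 and -1.90), Lgals3bp (-1.84 and -1.70), Iigp2 (-1.56 and -1.66), Parp14 (-1.34 and -1.72), Ifi47 (-1.48 and -1.33), Bst2 (-1.40 and -1.12), Ifi27 (-1.36 and -1.04), Mx2 (-0.86 and -1.35) and Trim25 (-1.19 and -0.91).

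These calls were not equally firm. With the processed signals the difference of Ifi27 was -0.13, and with the deposited ratio table -0.07, so its call was lost. Without WT replicate 1 Trim25 stood at -0.83, without KO replicate 2 at -0.98, and without WT replicate 2 Mx2 stood at -0.91. Averaged over its probes Parp14 stood at -0.88. Mx2, Gbp3 and Iigp1 were not well above background at low density in labelled WT, so their differences rest on a dim signal there, and with the processed signals that of Gbp3 was -1.58 and that of Iigp1 -2.47. Gbp2 (-1.14 and -0.85) and Irf1 (-0.97 and -0.99) lay near the threshold of 1, and Ifitm1 had 0.64 and 0.57. Because the design holds 1 replicate per genotype and density, these differences have no replicate check.

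**Figure D4:**
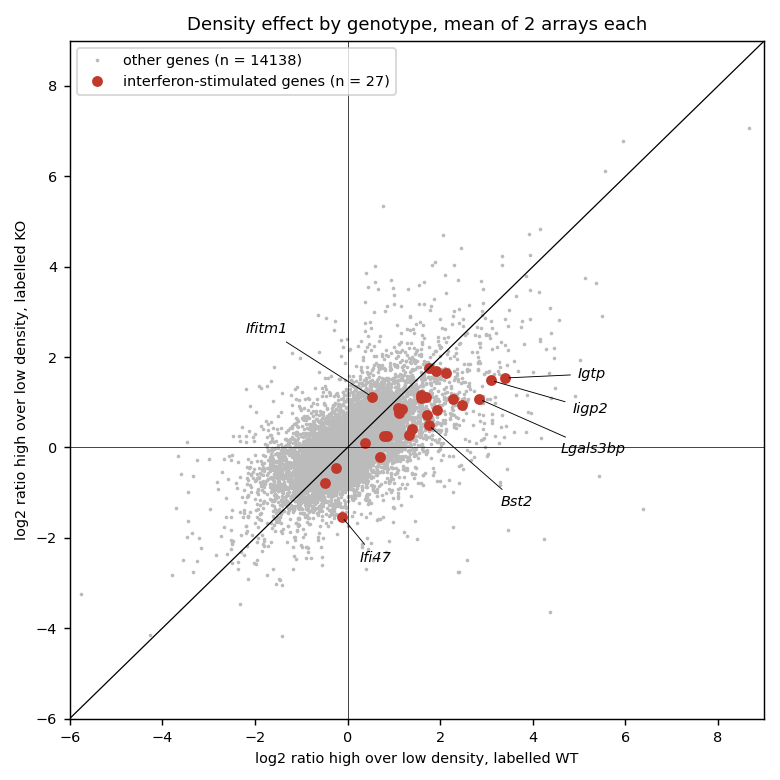
Mean log2 ratio of high over low density in labelled WT (horizontal axis) and in labelled KO (vertical axis) for 27 members (red) and the 14138 other genes measured in both (grey); the diagonal marks equal effects. Igtp, Iigp2, Lgals3bp, Bst2 and Ifi47 lie below the diagonal and Ifitm1 above it.

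At low density 20 of 24 measured members were above 0 (labelled KO over labelled WT), where 51.9% of all genes were, or 66.5% without scaling between arrays. Of the 40 genes 4 were higher, 1 was lower and 16 were too dim, against 7.32% higher and 8.37% lower among 15254 genes. Without scaling between arrays 8 were higher and 1 lower, where 1789 of the 15254 genes were higher and 800 lower. Among the 18 members well above background in all 4 channels 4 were higher (22.2%, against 6.91% of 13348 genes), with a median of 0.54 against -0.003. With the processed signals 13 members passed the rule at low density in place of 5, 11 of them higher and 2 lower. Over all genes 2190 of 15254 were then higher and 2007 lower. Trim25 stood at 9.35 and 9.37 in labelled WT and 11.80 and 11.77 in labelled KO (2.44 and 2.40), and its second probe gave 1.23 and 1.45. Ifi47 had 1.76 and 1.86, Parp14 0.83 and 1.49, and Stat2 1.03 and 0.98, with 0.99 under quantile scaling of all channels and 0.98 without replicate 1. Without replicate 2 Parp14 stood at 0.83. Ifi27 was the lower one, at -1.38 and -1.57, and was well above background on 1 of 2 arrays labelled KO.

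At high density 23 of 33 measured members were below 0, while 51.9% of all genes were above 0, or 68.1% without scaling between arrays. Of the 40 genes 2 were higher in labelled KO, 7 were lower and 7 were too dim, where 6.74% of 15614 genes were higher and 7.79% lower; among 27 members well above background in all 4 channels 2 were higher (7.41%) and 5 lower (18.5%), against 6.20% and 6.77% of 13708 genes, with a median of -0.37. With the processed signals 2 were higher and 13 lower of the 33, where 1880 of the 15614 genes were higher and 2061 lower. With the processing used here the share of higher members was near that of all genes. Ifi27 (-2.74 and -2.61) and Cxcl10 (-2.67 and -2.47) were lower, and Cxcl10 was well above background on 1 of 2 arrays labelled KO. Isg15 (-1.87 and -1.99), likewise measured on 1 array labelled KO, and Iigp2 (-1.77 and -1.78) followed. Lgals3bp had -1.35 and -1.11, Igtp -1.21 and -0.97 and Mx2 -1.05 and -1.002. Trim25 (1.25 and 1.49) and Ifitm1 (1.33 and 1.24) were the higher ones. Igtp, Lgals3bp and Mx2 depended on the scaling between arrays, since without it they stood at -0.85, -0.94 and -0.81. Without it 4 members were lower beside 2 higher, where 849 of the 15614 genes were lower and 1691 higher. Igtp also stood at -0.98 without replicate 1, and Trim25 at 0.88 averaged over its probes.

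**Figure D5:**
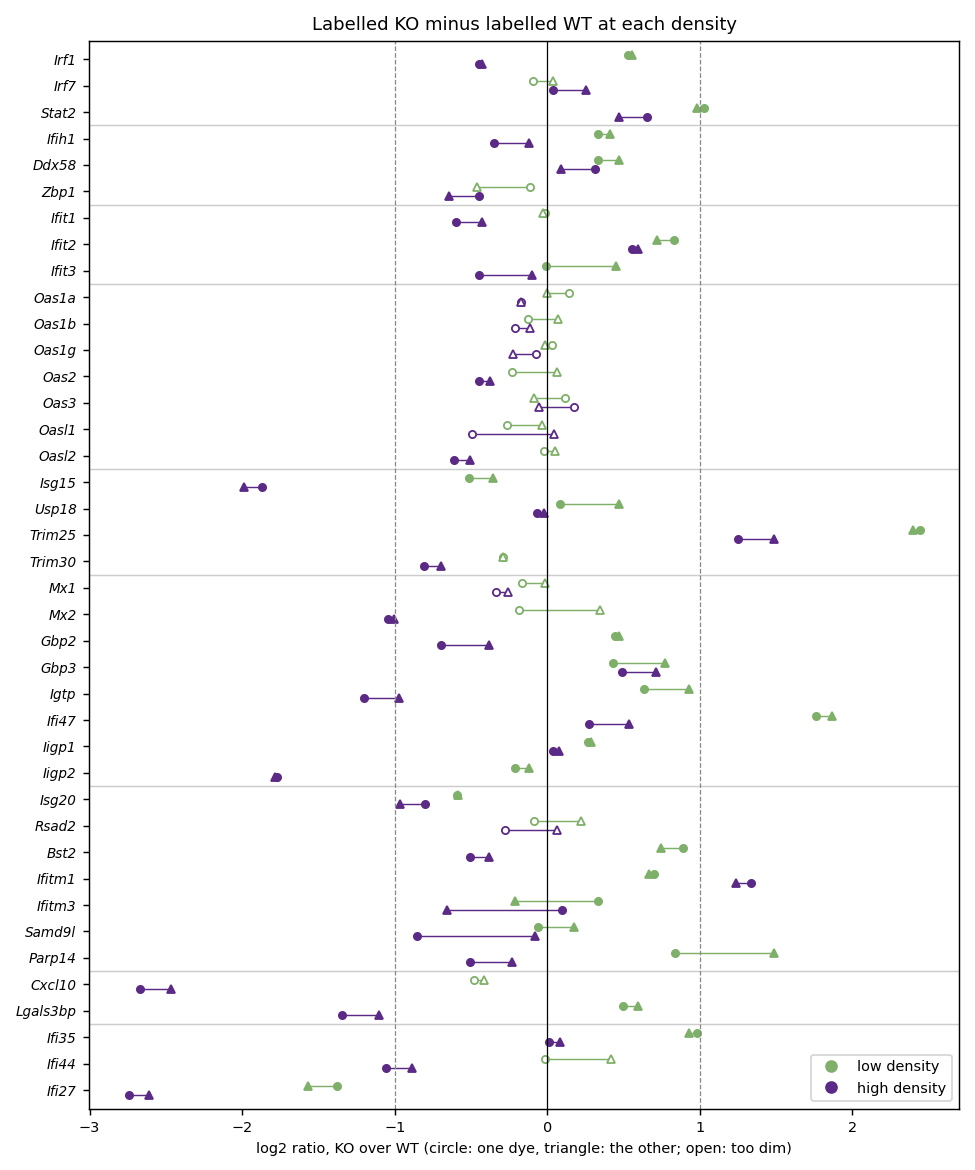
Log2 ratio of labelled KO over labelled WT for each of the 40 genes at low density (green) and high density (purple); circles and triangles are the values within each dye, open symbols were too dim to be counted and dashed lines mark 2-fold. Igtp, Parp14, Lgals3bp and Bst2 lie above 0 at low density and below 0 at high density.

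Other genes of the pathway were read from lists of ligands, receptors, regulators and further targets. None of 8 interferon genes on the array, among them Ifnb1 and Ifng, was well above background on both arrays of any condition. The receptor subunit genes Ifnar1 and Ifnar2 did not reach the threshold, with ratios of 0.45 and 0.15 and of 0.60 and 0.35 in labelled WT. Jak2 was higher in labelled KO at high density, at 0.97 and 1.17, while its second probe had 0.28 and 0.56.

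Of 6 negative regulators measured, 2 were higher at high density in labelled WT and 1 in labelled KO, against 9.42% and 7.17% of all genes. Socs1, which inhibits JAK kinases, was higher at high density in both genotypes, at 1.56 and 1.62 in labelled WT and 1.56 and 1.76 in labelled KO. Cish, of the same family, was higher in labelled WT, at 1.47 and 1.59. Socs3 was lower in labelled KO at low density, at -1.16 and -0.98, where 8.37% of all genes were lower.

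A list of 64 further interferon-stimulated genes on the array gave 21 higher and 4 lower of 45 measured in labelled WT, and 6 higher and 2 lower of 40 in labelled KO. Their medians were 0.94 and 0.23, and the shares over all genes given above were 9.42% higher and 6.09% lower in labelled WT and 7.17% and 3.87% in labelled KO. Over the genes well above background in all 4 channels of the contrast, 18 were higher and 3 lower of 34 in labelled WT (52.9% and 8.82%, median 1.08), and 6 higher and 2 lower of 35 in labelled KO (17.1% and 5.71%, median 0.18). Between the genotypes 6 were higher and 9 lower in labelled KO of 44 measured at low density, where 7.32% and 8.37% of all genes were. At high density 3 were higher and 15 lower of 48, against 6.74% and 7.79%. With all 4 channels well above background these counts were 5 and 4 of 28 at low and 1 and 8 of 34 at high density. Nmi, Ube1l (the E1 enzyme for Isg15) and Rtp4 were higher in both genotypes, with Ube1l at 2.42 and 2.81 in labelled WT and 1.66 and 1.77 in labelled KO. The immunoproteasome subunit gene Psmb9 was at least 2.47-fold higher in labelled WT, where it was not well above background at low density, and had ratios of 0.72 and 0.52 in labelled KO. Tgtp, an immunity-related GTPase gene, went in opposite directions, at 2.57 and 2.60 in labelled WT and -2.62 and -2.36 in labelled KO.

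The calls of the listed genes were set beside the promoter letters as a description. Of the 21 members with the ISRE letters, all on the array, 14 were higher at high density in labelled WT and 4 were too dim, and in labelled KO 6 were higher and 8 were too dim. Of the 12 members with a window and without these letters, 10 were on the array. Of these, 8 were measured and 3 were higher in labelled WT, and 9 were measured, 3 higher and 1 lower in labelled KO. Of the 9 members with the GAS letters 8 were measured, with 5 higher in labelled WT and 2 in labelled KO. Of the 24 without them 22 were on the array, 17 were measured and 12 higher in labelled WT, and 14 were measured, 7 higher and 1 lower in labelled KO. Among all genes measured, 9.42% were higher in labelled WT and 7.17% in labelled KO. Within the group with ISRE letters, Oas1a, Oas1g, Oas3 and Rsad2 were not well above background in any channel, while Igtp, Iigp2, Ifit3 and Cxcl10 had mean log2 ratios of 3.41, 3.10, 2.13 and 2.36 in labelled WT.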

How the data were processed

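The 2 genotypes and 2 densities were measured on 4 arrays. Per the file headers, the authors extracted the scanner images with Agilent Feature Extraction 10.5.1.1, and the deposited files hold raw mean and background intensity, processed signal intensity and a log10 ratio for each spot, with quality flags of 0 or 1. The deposited series matrix holds the same log10 ratio turned to high over low density. It was multiplied to the log2 scale.

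Raw intensity was background corrected by normexp (offset 50) and normalized by loess within arrays and by Aquantile between arrays (R 4.3.3, limma 3.58.1), with control spots given no weight. Contrasts were taken per array for density and per dye for genotype. A gene was counted when its probe was well above background on both arrays of 1 side or more, and for the difference in both density contrasts. A bound ("at least") compares the bright side with the dimmest signal called well above background, or with the dim probe's own signal where that was higher. The members, pathway lists and rules were chosen with earlier results of these data known. All called members were named with their values, and the others by value or count. All contrasts share the same 4 conditions. The ISRE letters were shortened by 1 base after a first search, with these values known. The size rule was tested on simulated data. The number of arrays limits the precision. Python 3.11.15 and pandas 2.3.3 were used. No columns of other samples were present. Some genes of the pathway lists are not reported here.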

Additional observations from a re-analysis of the deposited data

Results flagged for a closer look

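Some genes moved in opposite directions in the 2 genotypes on every array, or differed between the genotypes in opposite directions at the 2 densities in both dyes. None of these differences was tested, and the share of all genes that moved in these ways was not computed. Of the listed genes, Ifi35 had a mean density effect of 0.69 in labelled WT and -0.21 in labelled KO, a difference of -0.91. The ratio of labelled KO over labelled WT was above 0 at low and below 0 at high density for 8 members. It went from 0.78 to -1.09 for Igtp (a change of -1.87), from 0.55 to -1.23 for Lgals3bp (-1.77), from 1.16 to -0.37 for Parp14 (-1.53) and from 0.81 to -0.44 for Bst2 (-1.26). The changes were -0.996 for Gbp2, -0.98 for Irf1, -0.61 for Ifih1 and -0.32 for Usp18. Another Parp14 probe had 0.18 at low density, where it was too dim to be counted, and -0.06 at high density. At high density Usp18 had -0.05 and Ifih1 -0.24, beside a technical SD of 0.21 for that contrast. Without scaling between arrays 6 of the 8 members crossed 0 in both dyes, and Ifih1 (-0.02 at high density) and Usp18 (0.18) did not. Usp18 was not well above background at low density in labelled WT, so its low density ratio and its change rest on a dim signal. Among the other pathway genes the density effect was positive in labelled WT and negative in labelled KO for Tgtp (2.58 and -2.49, a difference of -5.07), Ifi204 (1.62 and -0.61, -2.24), Psmb8 (1.29 and -0.22, -1.51, with labelled WT at low density not well above background) and Lgals9 (0.40 and -1.08, -1.48).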

How the results depend on the processing

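The processing alternatives that can move a gene's value gave 331 values for the members called, of which 213 moved by less than the technical SD of the contrast, 118 moved by more in the same direction and 0 reversed, while 27 fell short of 2-fold. The count of members called, which was 22 in labelled WT, 12 in labelled KO, 5 and 9 between the genotypes at low and high density, and 9 for the difference, moved as follows. With processed signals it was 13 at low density, 15 at high density and 16 for the difference, and with the series matrix it was 16 for the difference. The processed signals also raised the number of calls over all genes in these contrasts, as given above. With a 1.4-fold threshold it was 20 in labelled KO, 14 and 19 between the genotypes at low and high density, and 18 for the difference. Without scaling between arrays it was 9 at low density (8 higher and 1 lower), and 2 higher and 4 lower at high density. An alternative chosen after seeing the data, well above background in every channel, gave 14 in labelled WT. Leaving out 1 array gave 21 to 22 in labelled WT, 11 to 12 in labelled KO and 9 to 11 for the difference. Between the genotypes, leaving out 1 replicate of both genotypes, and so 1 dye, gave 4 at low and 8 to 10 at high density. In all of these counts 1 value was left, so the rule on opposite signs did not apply. The remaining counts stayed within 1.5 times. Without scaling between arrays the median of all genes was 0.27 in both genotype contrasts, in place of 0.03, and the share of calls that were higher was 69.1% and 66.6%, in place of 46.7% and 46.4%. With median centring the median of all genes was -0.05 and -0.08 in the density contrasts, in place of 0.06, and the share was 47.1% and 42.8%, in place of 60.7% and 64.9%. No paired analysis was possible because each genotype and density has 1 replicate. Ratios of dim probes are limited by background, so the OAS family other than Oasl2 and Oas2, Rsad2, Mx1 and the interferon genes cannot be compared here.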
